A study of Mus musculus with 3 samples.

Results

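The genes described here are the replication histone genes of the mouse, taken as every row of the count table whose gene name begins with Hist, a cluster number from 1 to 4, and h. The rule found 63 of the 17857 genes in the table, of which 62 are annotated as protein coding and 1, Hist3h2bb-ps, as a pseudogene. By type there are 6 genes for H1, 16 for H2A, 18 for H2B, 10 for H3 and 13 for H4. By cluster, 54 belong to Hist1 on chromosome 13, 5 to Hist2 on chromosome 3, 3 to Hist3 on chromosome 11 and 1 to Hist4 on chromosome 6. Counts were found for 58 genes, and 57 reached the sum of 10 counts needed for a test.

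RNA came from cells sorted as CD11c-negative, Ly6C-positive and c-kit-positive, which the labels call precursor cells, out of lymph nodes that drained B16F10 melanomas in C57BL/6 mice (strain label C57BL/6J). The tumours had been implanted on both sides in the thigh, were 14 days old and were left untreated, and the nodes were pooled before the sort. The 3 libraries, named replicates 1, 2 and 3, form the only group, with no control population, so levels can be described and tested only against fixed values. The labels speak of repeat experiments but do not give the number of mice. P-values therefore reflect no more than how these 3 libraries varied, and that variation may be technical.

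Nucleosomes are built from the core histones H2A, H2B, H3 and H4, and H1 binds the linker DNA between them. The replication histone genes supply these proteins while DNA is copied. Most of them have no introns, and most of their transcripts end in a stem-loop in place of a poly(A) tail. The stem-loop binding protein SLBP and the U7 small nuclear ribonucleoprotein direct the cut that forms this end, and the transcripts are degraded when replication stops. Library construction started from 8 ng of RNA and used a low-input kit for total RNA, so capture did not depend on a poly(A) tail.

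The 16-base stem-loop is shown because it is the feature that sets these transcripts apart from other messengers. It was searched downstream of the stop codon in GENCODE M21 transcripts (build GRCm38). The capitals mark the loop of 4 bases between the arms of the stem.
Hist1h1c, chr13:23739512-23739527, plus strand: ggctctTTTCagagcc
Hist2h2ac, chr3:96220418-96220433, minus strand: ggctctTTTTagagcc
Hist1h3e, chr13:23561903-23561918, minus strand: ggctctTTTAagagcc
Hist1h4d, chr13:23581950-23581965, plus strand: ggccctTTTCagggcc
Hist1h4b, chr13:23757366-23757381, plus strand: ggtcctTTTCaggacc
A match was found in 43 of the 48 histone genes with at least 16 annotated bases after the stop codon, and in 19 of 21063 other coding genes (0.0902%), among them the variant histone gene H2afx and Hist2h2aa1, Hist2h2aa2 and Hist2h3c1, replication histone genes of the Hist2 cluster not analysed here. The form of Hist1h4d was shared by 7 H4 genes, and the form of Hist1h1c by 23 genes of the H1, H2A, H2B and H3 types. All 12 H4 genes with enough sequence had the first arm of the stem seen in Hist1h4d or in Hist1h4b, and no gene of another type did. No match was found in the GENCODE transcripts of Hist1h1a, Hist1h2bc, Hist1h2bq, Hist1h2br and Hist2h2be.

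Promoters of the member with the highest mean level per kilobase of each type are shown. Whether their motifs bear on the levels in the libraries was not tested. The RefSeq table of GRCm38.p6 gives 250 bases before and 50 after each start, and 57 members matched it with 58 promoters. Capitals mark 4 motifs searched on both strands. The TATA box, where the basal machinery binds, was searched as TATAAA. The box bound by the factor NF-Y was searched as CCAAT. The octamer, bound by the factor OCT1, was searched as ATTTGCAT. The box known from H1 promoters was searched as AAACACA. Each motif was searched on its own.
Hist1h1c, chr13:23738557-23738856, plus strand: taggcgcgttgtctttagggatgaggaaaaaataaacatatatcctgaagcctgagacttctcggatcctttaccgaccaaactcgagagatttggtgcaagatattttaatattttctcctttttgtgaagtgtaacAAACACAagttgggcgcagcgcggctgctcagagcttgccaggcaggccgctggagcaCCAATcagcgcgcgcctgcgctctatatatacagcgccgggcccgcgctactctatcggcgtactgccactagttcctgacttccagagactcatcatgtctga
Hist2h2ac, chr3:96220831-96221130, minus strand: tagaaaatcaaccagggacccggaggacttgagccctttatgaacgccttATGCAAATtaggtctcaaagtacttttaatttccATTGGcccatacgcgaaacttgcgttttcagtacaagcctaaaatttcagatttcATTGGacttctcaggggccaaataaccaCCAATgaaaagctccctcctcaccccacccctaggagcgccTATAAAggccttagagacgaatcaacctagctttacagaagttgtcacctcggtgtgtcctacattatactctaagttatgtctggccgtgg
Hist1h2bn, chr13:21753826-21754125, plus strand: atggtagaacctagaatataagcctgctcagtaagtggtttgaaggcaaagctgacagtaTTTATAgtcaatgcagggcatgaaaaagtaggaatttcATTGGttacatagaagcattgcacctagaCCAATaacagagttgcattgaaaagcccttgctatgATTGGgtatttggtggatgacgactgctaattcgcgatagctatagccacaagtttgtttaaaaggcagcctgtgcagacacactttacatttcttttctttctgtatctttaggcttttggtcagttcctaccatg
Hist1h3b, chr13:23752095-23752394, plus strand: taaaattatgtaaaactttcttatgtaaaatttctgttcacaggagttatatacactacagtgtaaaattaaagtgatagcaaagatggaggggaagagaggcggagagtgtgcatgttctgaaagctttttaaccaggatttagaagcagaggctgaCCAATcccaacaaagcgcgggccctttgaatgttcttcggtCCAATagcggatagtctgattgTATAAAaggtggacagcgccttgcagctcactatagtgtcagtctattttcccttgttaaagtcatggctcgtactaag
Hist1h4d, chr13:23581318-23581617, plus strand: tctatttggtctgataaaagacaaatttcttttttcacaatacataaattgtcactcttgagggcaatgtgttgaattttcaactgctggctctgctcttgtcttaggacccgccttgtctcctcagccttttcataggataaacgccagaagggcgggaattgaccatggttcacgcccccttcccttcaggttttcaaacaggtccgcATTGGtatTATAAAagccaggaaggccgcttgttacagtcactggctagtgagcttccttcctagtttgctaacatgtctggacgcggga
CCAAT was present in all promoters of the H1, H2A, H2B and H3 types (6, 16, 16 and 8), in 3 of 12 H4 promoters, and in 37.3% of the 32793 other promoters in the table. TATAAA was present in 34 of 58, against 13.5% of the others. The octamer was found in 7 of 16 H2A and 6 of 16 H2B promoters and in none of the other types, against 1.70% of the others. AAACACA was found in 5 of 6 H1 promoters, in 2 H2A and 2 H2B promoters, and in 7.17% of the others. The windows of divergent H2A and H2B neighbours overlap, so these counts are not independent. Matches were counted on either strand and at any position, so a marked motif need not be a box of that gene. The TTTATA marked for Hist1h2bn is the TATAAA of the Hist1h2ak window read on the other strand.

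Library totals were 9077195, 13885509 and 13861430 counts in replicates 1, 2 and 3, and the libraries differed in composition. Mitochondrial ribosomal RNA took 17.8, 6.22 and 13.1% of counts. The summed level of 7 erythroid markers was 3890, 129 and 339 CPM (read counts normalised to library size with TMM factors), and that of 6 macrophage markers was 1161, 87.6 and 234 CPM. Every one of these 13 genes was highest in replicate 1, as were all 6 B cell markers (45.2% of all genes tested were). Of 6 markers each, 3 monocyte and 4 stem and progenitor markers were highest there, and no T cell, NK cell or neutrophil marker was. The 6 T cell markers summed to 2529, 3364 and 3201 CPM, the 6 NK cell markers to 76.8, 588 and 234 CPM, and 6 stem and progenitor markers to 105, 195 and 119 CPM. Kit, the gene of the sorted receptor c-kit, was read at 9.83, 5.35 and 5.92 CPM, and Ly6c2, a gene for Ly6C, at 11.5, 121 and 41.2 CPM. In bulk samples, fewer cells of a type and less RNA per cell cannot be told apart. The part of these markers and of the mitochondrial share in the histone values below was not tested.

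The replication histones together took 34674 of the counts of replicate 1 (0.382%, 95% Wilson interval 0.378 to 0.386%), 9869 of replicate 2 (0.0711%, 0.0697 to 0.0725%) and 14318 of replicate 3 (0.103%, 0.102 to 0.105%). These intervals cover counting error only. In CPM the sums were 3664, 704 and 1087, so replicate 1 held 4.09 times the mean of the other replicates. The mean of the 3 sums was 1818 CPM, and without replicate 1 it was 896 CPM. Of the 57 genes tested, 56 were highest in replicate 1 (45.2% of all genes tested were), and 54 were at least 2-fold higher there than the mean of replicates 2 and 3 (30.3% of all genes tested were). The median ratio of replicate 1 to that mean was 5.38 for the histone genes and 1.06 for the 15490 genes tested. The filter summed counts over the libraries. Without replicate 1, 49 of the 57 members and 13174 of the 15490 genes reached it. For those that passed only through replicate 1, a high value there is partly fixed by the filter. Replicates 2 and 3 also differed: 47 of the 57 members tested were higher in replicate 3 than in replicate 2 (53.1% of all genes tested were).

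**Figure D1:**
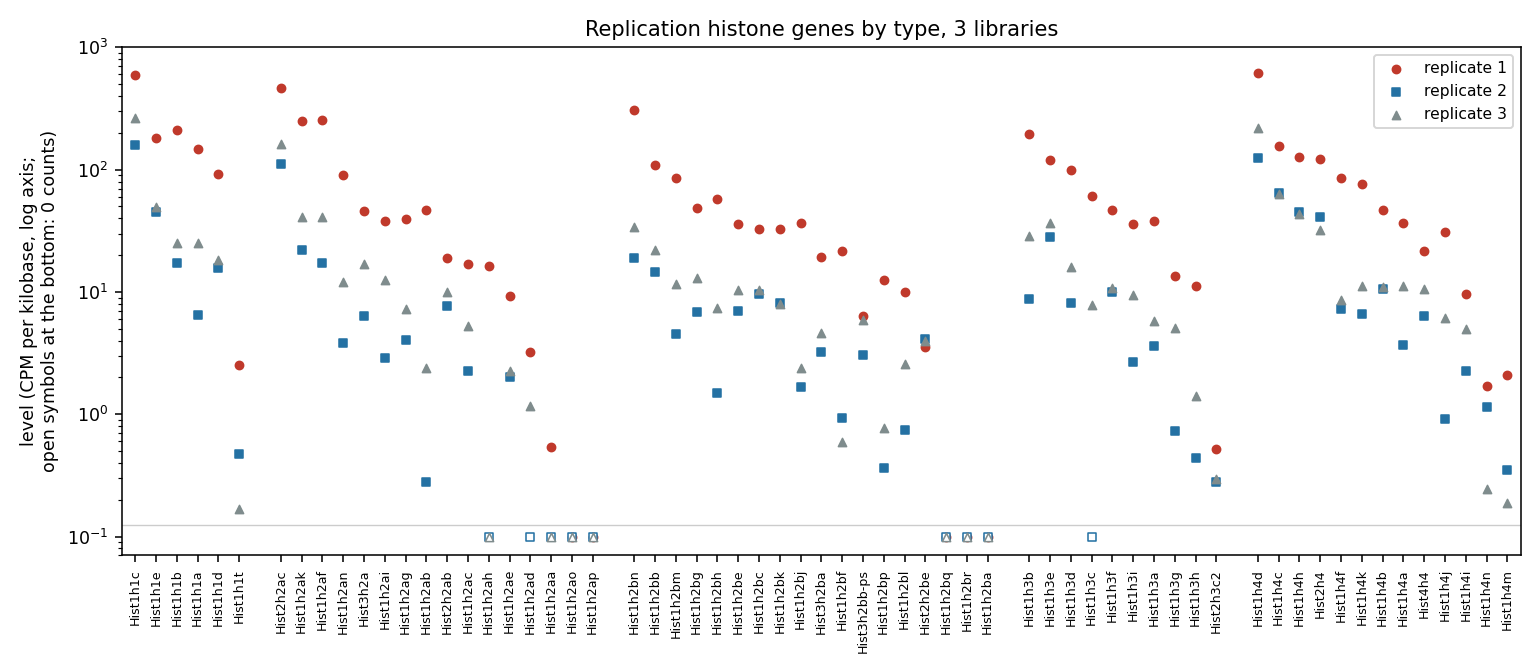
Level of each replication histone gene in CPM per kilobase of gene (log axis) in replicates 1, 2 and 3, grouped by histone type and ordered by mean. Open symbols at the bottom are libraries with 0 counts. Replicate 1 lies on top for all genes tested but Hist2h2be.

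Against a fixed level of 1 CPM, 46 members lay above it in edgeR's quasi-likelihood test with Benjamini-Hochberg adjustment over all genes tested, where 68.6% of all genes tested did. Against 50 CPM, 5 members lay above it (19.9% of all genes tested) and 35 below it (66.7% of all genes tested). The 5 above it were Hist1h1c, Hist1h1e, Hist1h1d, Hist2h2ac and Hist1h4d. Without replicate 1 the counts were 37 above 1 CPM (78.1% of all genes tested), 2 above 50 CPM (23.4%) and 44 below 50 CPM (63.1%). The 2 above 50 CPM without it were Hist1h1c and Hist1h1e. Without replicate 2 the counts were 50 (70.7%), 6 (19.5%) and 39 (69.3%), and without replicate 3 they were 47 (69.5%), 5 (18.3%) and 25 (36.6%), in the same order. Members tested numbered 49, 54 and 56 without replicates 1, 2 and 3. Olfactory receptor genes, which leukocytes rarely use, averaged 0.248, 0.0207 and 0.0482 CPM per kilobase over 569 genes, and 54 of the 57 members tested lay above that average in all 3 libraries (83.7% of all genes tested did).

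The linker histone H1 genes gave the largest sums in CPM, with 1803, 397 and 603 CPM in replicates 1, 2 and 3. Hist1h1c, which encodes a somatic H1 subtype (H1f2 in RefSeq, Entrez gene 50708, chromosome 13, 23738807 to 23739531, plus strand), was read at 925, 246 and 416 CPM. All 3 libraries lay well above 50 CPM, and the fitted level was 3.40 above it on the log2 scale (edgeR adjusted p = 5.11e-06). Hist1h1e, another somatic H1 (H1f4, Entrez gene 50709, chromosome 13, 23621777 to 23622558, minus strand), was read at 351, 87.2 and 96.2 CPM, which is 1.83 above 50 CPM on the log2 scale (edgeR adjusted p = 0.000985). Hist1h1d (H1f3) was read at 273, 46.9 and 54.5 CPM, so only replicate 1 stood clear of 50 CPM (edgeR adjusted p = 0.0156). Without replicate 1 its difference from 50 CPM was -0.0091 on the log2 scale, and the call was lost.

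Hist1h1b and Hist1h1a, the other somatic H1 genes of the set, had the largest ratios of replicate 1 to the mean of the others among the H1 genes. Hist1h1b was read at 141, 11.7 and 16.9 CPM and Hist1h1a at 110, 4.85 and 18.7 CPM, and neither was separated from 50 CPM with all 3 libraries (edgeR adjusted p = 0.790 and 0.812). Hist1h1b lay below 50 CPM without replicate 1 (log2 difference -1.83, edgeR adjusted p = 0.00106) and above it without replicate 2 (0.65, adjusted p = 0.0412). Those ratios were 9.82 and 9.39, against 2.79 for Hist1h1c and 3.83 for Hist1h1e. Hist1h1c alone made 48.3, 64.9 and 69.2% of the H1 level per kilobase in replicates 1, 2 and 3. Hist1h1t, the testis H1 gene, was read at 2.32, 0.428 and 0.152 CPM and was not separated from 1 CPM (edgeR adjusted p = 0.973).

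Among the H2A genes, which summed to 627, 86.3 and 163 CPM, Hist2h2ac (H2ac20, Entrez gene 319176, chromosome 3, 96220413 to 96220880, minus strand) led. It was read at 180, 43.4 and 63.6 CPM, so that replicates 1 and 3 lay above 50 CPM and replicate 2 below it (0.94 above 50 CPM on the log2 scale, edgeR adjusted p = 0.0257). Without replicate 1 it was 0.07 above 50 CPM and no longer passed (edgeR adjusted p = 0.752). It made 35.7, 61.8 and 51.7% of the H2A level per kilobase. Next in mean level per kilobase were Hist1h2ak, read at 98.8, 8.70 and 16.1 CPM, and Hist1h2af, read at 100.3, 6.78 and 16.2 CPM. Their levels per kilobase over the 3 libraries were 105 ± 127 and 105 ± 131 (SD, n = 3), a spread larger than the mean. In mean CPM, Hist3h2a lay above both, at 45.8 against 41.2 and 41.1 CPM. Hist1h2ao and Hist1h2ap had no count in any library, and Hist1h2ah had 60 counts in replicate 1 and 0 in the others, which is at least 28.7-fold higher in replicate 1 with a floor of 3 counts per library. The 16 H2A genes encode 8 proteins, and the protein shared by 9 Hist1 genes took 18.9, 8.53 and 13.6% of the H2A level per kilobase.

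The H2B genes summed to 436, 63.8 and 94.1 CPM. Of the 15 genes tested 12 lay below 50 CPM, as did 66.7% of all genes tested, and 3 were not separated from it. Hist1h2bn was the highest per kilobase, with 116, 7.27 and 13.0 CPM, and its ratio of replicate 1 to the others was 11.5. Hist1h2bb was read at 51.4, 6.85 and 10.4 CPM and Hist1h2bm at 32.8, 1.71 and 4.41 CPM. Hist2h2be stood against this pattern, with 9.30, 10.7 and 10.4 CPM, so that replicate 1 was the lowest of the 3 libraries and the ratio was 0.881. In the mouse, Hist2h2be is known for an H2B form of olfactory neurons. Hist1h2bq, Hist1h2br and the testis gene Hist1h2ba had no count in any library. The 17 H2B genes that code for protein encode 10 proteins, and the protein shared by 6 genes, Hist1h2bn among them, took 45.6, 26.3 and 28.8% of the H2B level per kilobase.

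The H3 genes summed to 297, 32.6 and 59.1 CPM, the lowest of the 5 types. Hist1h3b was read at 81.2, 3.57 and 11.8 CPM, Hist1h3e at 48.9, 11.6 and 15.2 CPM and Hist1h3d at 40.7, 3.35 and 6.53 CPM. All 3 were highest in replicate 1 and lowest in replicate 2, and none was separated from 50 CPM with all 3 libraries (edgeR adjusted p = 0.402, 0.0501 and 0.0550). Without replicate 1 all 3 lay below it (edgeR adjusted p = 0.00260, 0.000831 and 0.000905), as did Hist1h3e and Hist1h3d without replicate 2 (0.0283 and 0.00693). Translated from GENCODE, the 10 H3 genes encode 2 proteins. The protein made by 6 of them, Hist1h3b to Hist1h3f and Hist2h3c2, took 84.1, 88.2 and 82.2% of the H3 level per kilobase, and the other, made by Hist1h3a, Hist1h3g, Hist1h3h and Hist1h3i, took the rest. The lowest H3 genes per kilobase were Hist1h3h, with 5.50, 0.214 and 0.684 CPM, and Hist2h3c2. Hist2h3c2 had 5, 4 and 4 counts, and all of its coding windows of 50 bases are found in another gene.

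The H4 genes summed to 501, 124 and 168 CPM, and their 13 genes encode 1 protein of 103 residues. Hist1h4d (H4c4, Entrez gene 319156, chromosome 13, 23581568 to 23581969, plus strand) was read at 193, 38.8 and 68.1 CPM, above 50 CPM in replicates 1 and 3 (1.00 on the log2 scale, edgeR adjusted p = 0.0255). Without replicate 1 it was 0.07 above 50 CPM and no longer passed (edgeR adjusted p = 0.783). It made 46.3, 39.6 and 51.8% of the H4 level per kilobase. Hist1h4c was read at 49.1, 20.2 and 19.9 CPM and Hist1h4h at 61.0, 21.4 and 20.7 CPM, and for both the values of replicates 2 and 3 lay close together. Although all H4 genes encode the same protein, their ratios of replicate 1 to the mean of the others ran between 2.44 and 10.7. Hist1h4f, at the upper end, was read at 26.4, 2.28 and 2.66 CPM. Hist1h4n and Hist1h4m, whose coding windows are all shared with another gene, had 5, 5 and 1 counts and 8, 2 and 1 counts.

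Per kilobase of gene, H4 took 25.2, 35.5 and 30.5% of the summed level of the 63 genes in replicates 1, 2 and 3, H1 took 23.1, 27.5 and 27.9%, and H2A took 24.4, 20.3 and 22.8%. H2B took 15.4, 9.64 and 9.98% and H3 took 11.7, 7.09 and 8.83%. The order of H4 and H1 depends on the gene lengths. With the longest GENCODE transcript in place of the table's length, an alternative chosen after the data were seen, H1 took 33.5% and H4 18.7% on average over the libraries, against 26.2% and 30.4% with the table's lengths. For 30 members the table's length equals the coding length. For Hist1h1c it is 1561 bases. The stem-loop of Hist1h1c stands 24 bases after the stop codon, while its GENCODE transcript holds 880 bases after that codon.

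**Figure D2:**
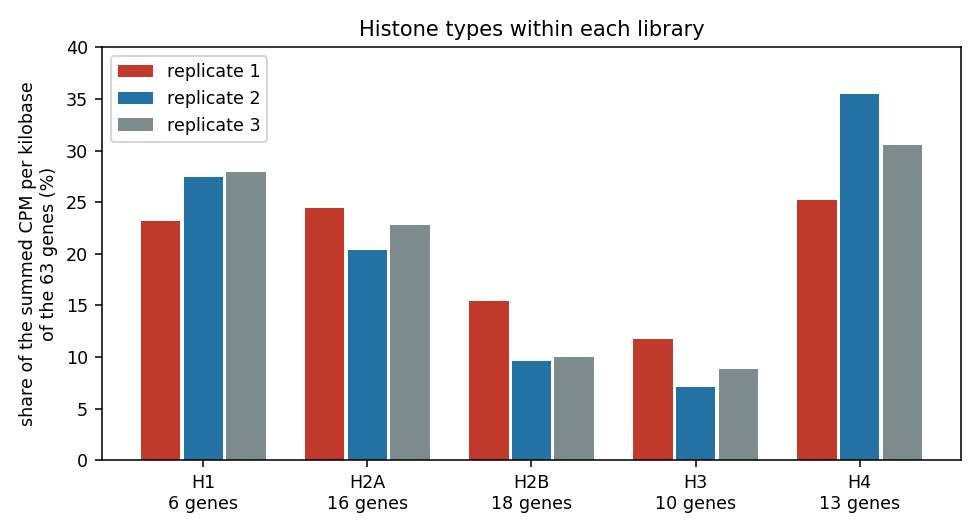
Share of the summed CPM per kilobase held by each histone type in replicates 1, 2 and 3 (bars start at 0%). H2B and H3 hold a larger share in replicate 1 (15.4 and 11.7%) than in the other libraries, and H4 a smaller one (25.2%).

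By cluster, Hist1 took 86.8, 79.3 and 82.1% of the level per kilobase and Hist2 took 11.5, 18.6 and 15.2%, most of it from Hist2h2ac. Hist3 took 1.35, 1.43 and 1.99%. Its Hist3h2a was read at 90.9, 12.7 and 33.8 CPM, Hist3h2ba at 11.9, 2.00 and 2.89 CPM and the pseudogene Hist3h2bb-ps at 2.96, 1.43 and 2.73 CPM. The lone Hist4 gene, Hist4h4, was read at 61.8, 18.4 and 30.6 CPM. In Hist2, Hist2h4 was read at 42.5, 14.3 and 11.2 CPM and Hist2h2ab at 7.50, 3.00 and 3.95 CPM. The ratio of replicate 1 to the mean of the others was 4.27 for Hist1 as a whole, 2.98 for Hist2, 3.81 for Hist3 and 2.52 for Hist4.

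Hist1 falls into 4 blocks on chromosome 13, split at gaps over 100 kb. The first block, 18 genes from 21715711 to 21837530, summed to 508, 36.9 and 72.3 CPM, and the third, 29 genes from 23531044 to 23764412, to 2691, 554 and 846 CPM. Both were highest in replicate 1, by 9.31-fold over the mean of the others in the first block and by 3.85-fold in the third. The third block held 62.3, 68.1 and 68.3% of the level per kilobase of all 63 genes, and the first held 21.9, 9.39 and 12.2%. The second block of 5 genes summed to 56.7, 6.85 and 10.03 CPM. The fourth holds the testis genes Hist1h2aa, with 2 counts in replicate 1 and 0 in the others, and Hist1h2ba, with none.

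**Figure D3:**
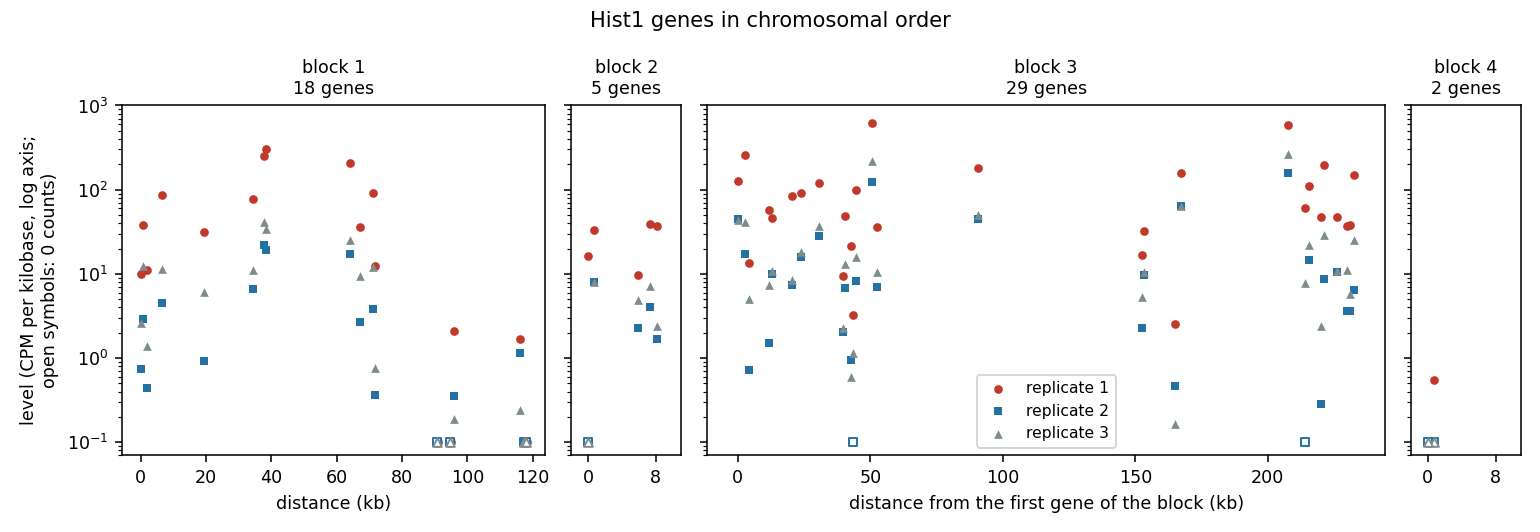
Level in CPM per kilobase (log axis) of the Hist1 genes in chromosomal order, by distance in kilobases from the first gene of each block, in replicates 1, 2 and 3. Open symbols are libraries with 0 counts. The end of block 1 holds genes with few or no counts, and block 3 holds the genes with the highest levels.

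Of the H2A and H2B genes, 13 pairs stand head to head with at most 500 bases between them, and both genes had counts in 10 pairs. Hist1h2ak and Hist1h2bn, 163 bases apart, had close means, at 105 ± 127 and 119 ± 161 CPM per kilobase (SD, n = 3), and both were highest in replicate 1. Hist2h2ac and Hist2h2be, 191 bases apart, were the most unlike in mean level per kilobase. Hist2h2ac had 463, 111 and 163 CPM per kilobase and Hist2h2be had 3.55, 4.09 and 3.97, and the values do not overlap. The ratio of the means was 63.4, and 34.0 without replicate 1. In single libraries the ratio was 130, 27.2 and 41.0. In CPM, with no division by length, an alternative chosen after the data were seen, Hist2h2ac was 9.45 times Hist2h2be in the mean, less than the 19.3 times of Hist3h2a to Hist3h2bb-ps. The table's length is 390 bases for Hist2h2ac, its coding part, and 2618 bases for Hist2h2be. In the other 8 pairs with counts the ratio of the H2A to the H2B mean lay between 0.189 and 7.82.

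**Figure D4:**
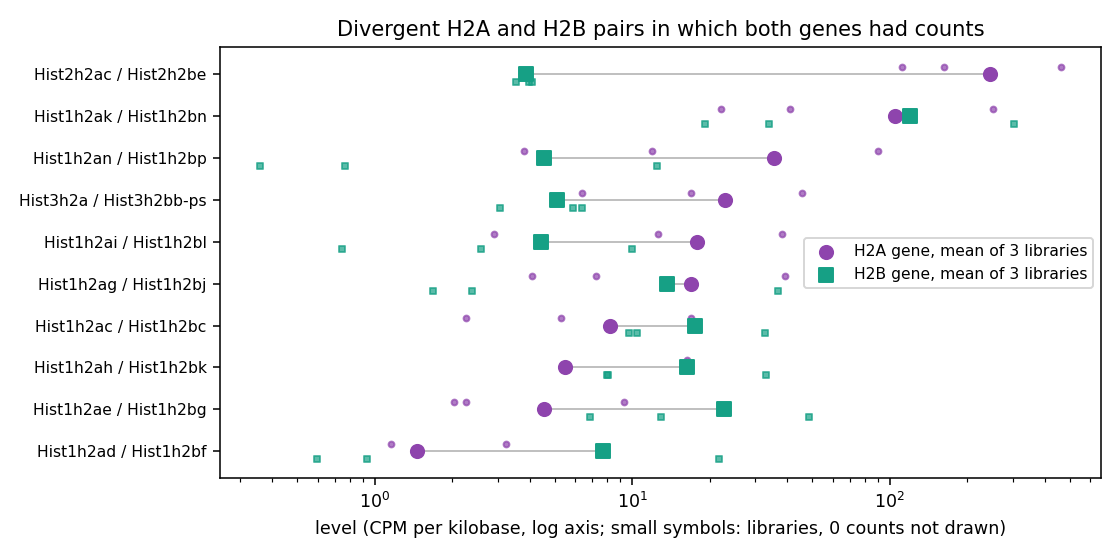
Levels in CPM per kilobase (log axis) of the H2A gene and the H2B gene of each divergent pair in which both had counts. Large symbols are means of 3 libraries and small symbols are libraries. The pair of Hist2h2ac and Hist2h2be lies farthest apart, and that of Hist1h2ak and Hist1h2bn lies close together.

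The members with the largest ratio of the highest to the lowest library were Hist1h2ab, Hist1h3c, Hist1h2bh, Hist1h2bf and Hist1h2bp. Hist1h2ab had 225, 2 and 16 counts and Hist1h3c had 277, 0 and 49 counts. Hist1h2bh had 207, 8 and 37 counts, Hist1h2bf had 78, 5 and 3 counts and Hist1h2bp had 70, 3 and 6 counts. All 5 were highest in replicate 1. A count of 0 was set to 3 counts, so the ratio of Hist1h3c is a lower bound. That of Hist1h2ah, 29.6 against 34.6 for Hist1h2bp, is a lower bound too, so its rank is not settled. The table's counts cannot settle the split between near-identical genes: 47 members share more than 50% of their coding windows of 50 bases with another gene, 9 share all, and 5 share none. Genes whose exons overlap those of the member were left out of this search, so sharing with them is not counted. The share was 21.9% for Hist1h1c, 25.4% for Hist1h1e, 26.4% for Hist1h1d, 53.4% for Hist2h2ac and 42.2% for Hist1h4d. Of the 5 genes with no count, Hist1h2ao, Hist1h2ap, Hist1h2bq and Hist1h2br share all of them. Exons of 19 members overlap another gene, and neither the strand setting nor the treatment of reads with several matches is given in the sources used here.

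The list of variant histones, which holds core and linker histone genes outside the set described above, gave 14 measured genes of 17 listed. Above 50 CPM lay 2 of them, and 9 lay below it. Of all genes tested, 19.9% lay above 50 CPM and 66.7% below it, against which the counts of this and the following lists are to be read. H3f3b, a gene for H3.3, was read at 426, 197 and 314 CPM, and H2afy, the gene for macroH2A, at 177, 278 and 199 CPM. H2afj was read at 49.6, 58.7 and 57.0 CPM and H2afz, the gene for H2A.Z, at 6.34, 8.70 and 9.95 CPM. The median ratio of replicate 1 to the others was 1.67 over the 13 tested. H2afx, the gene for the DNA damage histone H2A.X and the only gene of this list with a stem-loop match, was read at 62.8, 18.2 and 20.8 CPM, a ratio of 3.22.

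Genes that make and degrade histone transcripts gave 23 measured genes of 26 listed, with 11 above and 10 below 50 CPM and a median ratio of 0.881. Slbp, the stem-loop binding protein, was read at 56.7, 45.9 and 47.0 CPM, and Npat, the coactivator of histone gene transcription, at 62.8, 55.3 and 62.1 CPM. Casp8ap2, a protein of the histone locus body, was read at 125, 128 and 163 CPM and Lsm11, a protein of the U7 particle, at 16.4, 30.8 and 23.0 CPM. Each of these 4 genes varied less than 2-fold between libraries. Ccne2, a cyclin that drives entry into S phase, was read at 15.4, 0.357 and 2.66 CPM and had the largest ratio of the list, 10.2. Among 22 histone chaperones, 14 lay above and 6 below 50 CPM, with a median ratio of 0.970. Asf1b, a chaperone of H3 and H4 in dividing cells, was read at 12.0, 3.78 and 4.56 CPM, and Chaf1a, of the assembly factor at replication forks, at 17.0, 10.1 and 5.32 CPM.

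The 25 S phase genes, of which 4 lay above and 15 below 50 CPM, summed to 1008, 811 and 709 CPM, with a median ratio of 1.50. Mcm6, a subunit of the replicative helicase, was read at 106, 132 and 97.6 CPM, Pcna, the sliding clamp, at 40.7, 15.8 and 30.9 CPM and Rrm2, a subunit of ribonucleotide reductase, at 37.5, 3.35 and 8.35 CPM. Of the 25, 20 were highest in replicate 1 (45.2% of all genes tested were), Pcna and Rrm2 among them, and Mcm6 was not. At least 2-fold higher there than the mean of the others were 6 (30.3% of all genes tested were). The 15 mitosis genes, of which 2 lay above 50 CPM (1 without replicate 1) and 8 below it, summed to 1728, 204 and 351 CPM. All 15 were highest in replicate 1, with a median ratio of 6.04. Mki67, a proliferation marker, was read at 1009, 108 and 173 CPM and Top2a, a topoisomerase, at 187, 30.2 and 70.3 CPM. The erythroid, macrophage and B cell markers given above were also highest in replicate 1, and their part in the histone values was not tested.

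**Figure D5:**
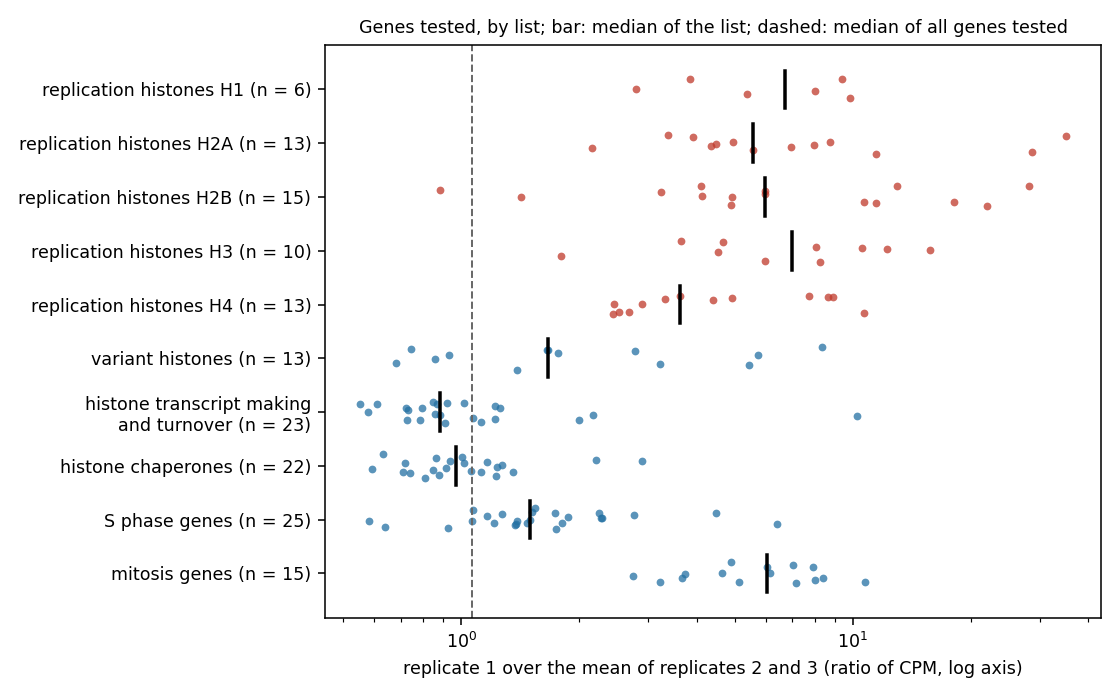
Ratio of CPM in replicate 1 to the mean of replicates 2 and 3 (log axis) for each gene tested, by histone type and list. Black bars are the medians of the lists, the dashed line is the median of all genes tested (1.06), and the value of Hist1h2ah is a lower bound. The mitosis genes (median 6.04) lie in the range of the replication histones, while the genes for histone transcripts (0.881) and the chaperones (0.970) lie near the dashed line.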

How the data were processed

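RNA of 1 sorted population was sequenced in 3 libraries. The deposited table holds raw read counts per gene as the authors made them, with Entrez identifiers and a gene length in bases. Per the submitters' processing notes, the tools were STAR 2.75, bcl2fastq, DESeq2 1.18.1 and featureCounts and the build was mm10, with no role stated. Annotation release, strand setting and multiple-match treatment: not given in the sources used here.

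Counts were scaled with TMM factors (1.04, 1.01 and 0.950) in edgeR 4.0.16 (R 4.3.3). A count of 0 allows 3 counts, which is 0.317, 0.214 and 0.228 CPM. Genes whose counts summed to 10 or more (15490) were tested against 1 and 50 CPM, two-sided, by the quasi-likelihood F statistic with the reference level in the offsets of an intercept-only design, computed from the edgeR fit because the standard function takes no such design. P-values were adjusted over all genes tested, with a threshold of 0.05. The procedure was tested on simulated data. The simulation gave all genes a common dispersion and the same level in every library, so it did not cover the excess in replicate 1. CPM per kilobase used the table's lengths. Coordinates and symbols come from RefSeq GRCm38.p6, transcripts from GENCODE M21.

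The members and lists were chosen with earlier results of these data known. Named members are the 3 highest and 2 lowest of each type per kilobase, the 5 with the largest and 5 with the smallest ratio between libraries, all outside Hist1, all without counts, and the testis genes. In other lists the 3 highest and 2 lowest and Slbp, Npat, Casp8ap2, Lsm11, Mki67 and Pcna could be named. Hist1h1a, Hist1h2ah, H2afx, H2afz, Hist1h4f, Ccne2 and Rrm2 were named after their values were seen. Alternatives included DESeq2 1.42.0, other scalings and filters, and leaving out each library. Marker sums not given in the text were 614, 904 and 356 CPM for monocytes, 164, 65.4 and 688 CPM for neutrophils, 304, 119 and 163 CPM for B cells and 3.59, 1.71 and 0.380 CPM for germ cells.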

Additional observations from a re-analysis of the deposited data

How the results depend on the processing

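Hist1h1c and Hist1h1e lay above 50 CPM under all 10 alternatives of that test. Members above 50 CPM numbered 3 with edgeR's filterByExpr and 2 with robust empirical Bayes, against 5, and 2 to 6 when a library was left out. Members below 50 CPM numbered 15 and 22 under the same settings, against 35, and 25 to 44 when a library was left out. These counts rest on unlike numbers of members: filterByExpr tested 41, against 57 in the main and robust settings. Without replicates 1, 2 and 3 the members tested numbered 49, 54 and 56. Mitosis genes above 50 CPM numbered 1 with library totals and no factor, filterByExpr, the DESeq2 Wald test or robust empirical Bayes, against 2, and 1 to 3 when a library was left out. Shares over all genes tested are given above for the main test and for each library left out, but not for the other settings. Whether the counts under those settings fell more than among all genes therefore cannot be told here. Against 50 CPM, 4 genes turned below it without replicate 1. When a library was left out, the log2 differences ran from -1.32 to 0.93 for Cenpf, from -1.83 to 0.65 for Hist1h1b, from -0.0091 to 1.71 for Hist1h1d and from -0.023 to 1.36 for Top2a. Hist1h1d also lost its call with the DESeq2 Wald test and robust empirical Bayes (adjusted p = 0.0957 and 0.181), and Hist1h4d and Hist2h2ac lost theirs with filterByExpr (0.0508 and 0.0511) and robust empirical Bayes (0.187 and 0.165). As shares of CPM without gene length, H1 took 53.7%, H2A 14.8%, H3 6.06% and H4 15.6%, and Hist2 8.32%, Hist3 2.93% and Hist4 2.37%. With GENCODE lengths H1 took 33.5%, H2A 26.1% and H4 18.7%. Apart from the changes of length, the cause was not tested. Counts above 50 CPM of the variant, chaperone, transcript and S phase lists stayed within 1.5 times. No paired analysis was possible because there is 1 group. How reads shared by near-identical genes were counted is not given, which limits the values of single members.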
